A study of Mus musculus with 6 samples.

Results

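Resident Kupffer cell markers are described here as 10 genes, Marco, Timd4, Clec4f, Vsig4, Adgre1, Cd5l, C1qa, C1qb, C1qc and Csf1r, chosen by symbol from the 56674 rows of a liver count table. Each symbol was found on 1 row, and all 10 were among the 18284 genes with enough counts to be tested. RNA came from the livers of 6 male C57BL/6 mouse samples, an inbred laboratory strain, reared for 71 weeks. In the control group (3 samples) the food was normal chow, and in the other group (3 samples) it was chow with polypropylene microplastic (PP-MP), particles of a common packaging plastic. No genetic change is named for either group. One label field names PS-MP chow for all 6 samples, controls included, and the groups follow the titles and the treatment characteristic instead. The labels and series text leave dose, particle size and time on the diet unstated. Nor do they tie replicates to separate animals, and the p-values therefore describe only how far these samples spread, which may be technical.

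Kupffer cells are the macrophages that live in the sinusoids of the liver, where they take up particles, bacteria and dying cells from portal blood. They are seeded early in life, depend on signals through the CSF1 receptor, and carry a set of scavenger, lectin and complement receptors that sets them apart from monocytes recruited from blood. In mice Clec4f is largely restricted to these cells and Timd4 marks the long-lived ones, whereas Adgre1, Csf1r and the C1q genes are shared with other macrophages.

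RefSeq promoter windows (build GRCm38.p6) matched 7 of the 10 genes. Of these 3 are shown, with the 250 bases before the annotated start, because Marco and Timd4 were the markers whose diet groups did not overlap and Clec4f had the smallest fold change. Capitals mark GAGGAA, a core bound by the macrophage factor PU.1, or TGCTGAC, a half-site of MAF factors, searched on both strands.
Marco, chr1:120505025-120505274, minus strand: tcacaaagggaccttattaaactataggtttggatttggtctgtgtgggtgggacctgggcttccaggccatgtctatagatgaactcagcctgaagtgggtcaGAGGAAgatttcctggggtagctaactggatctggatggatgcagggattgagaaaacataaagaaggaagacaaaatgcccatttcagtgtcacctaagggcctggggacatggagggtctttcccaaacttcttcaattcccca
Timd4, chr11:46810549-46810798, plus strand: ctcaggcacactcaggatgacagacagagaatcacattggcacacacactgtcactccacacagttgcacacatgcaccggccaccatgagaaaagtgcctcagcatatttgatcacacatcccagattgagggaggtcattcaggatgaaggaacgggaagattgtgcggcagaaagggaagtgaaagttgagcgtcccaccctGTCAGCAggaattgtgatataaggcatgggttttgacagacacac
Clec4f, chr6:83656117-83656366, minus strand: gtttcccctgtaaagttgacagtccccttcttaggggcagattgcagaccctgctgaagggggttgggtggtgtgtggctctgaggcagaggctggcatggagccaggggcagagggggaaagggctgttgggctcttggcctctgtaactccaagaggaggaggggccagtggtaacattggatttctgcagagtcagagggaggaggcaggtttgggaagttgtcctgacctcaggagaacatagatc
GAGGAA stood in the windows of Marco, Cd5l, C1qb, C1qc and Vsig4, 5 of 7, and in 23.3% of the 32851 windows in the table. TGCTGAC stood in the Timd4 window alone among the 7, and in 3.81% of all windows. The Clec4f window held neither. Of 2 further motifs searched on both strands and not marked, TGACNNNGC, the core of the antioxidant response element, stood in the windows of C1qb and Clec4f and in 10.2% of all windows. An NF-kB motif stood in those of Marco, C1qb and C1qc and in 17.6% of all windows. These are matches of letters, not sites of binding.

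Total counts per library ranged from 68357478 to 112566641, and every marker had between 107 and 14762 counts in each library. Levels are in CPM, counts scaled to library size, after TMM scaling, which corrects for differences in RNA composition between libraries. The 18S ribosomal RNA gene took 1.15% to 11.2% of the counts in control and 0.655% to 0.750% in PP-MP, with the highest share in control 2. Acute phase genes were highest in PP-MP 1, with a summed level of 27320 CPM against 5965 to 8134 CPM in the other libraries. With mitochondrial, haemoglobin and ribosomal RNA genes left out before scaling, the markers' median log2 fold change was 1.16, against 1.13 with them. Beyond that, the part of these differences between libraries in the marker levels was not tested. In whole liver, fewer cells of a type and less RNA per cell cannot be told apart, and this applies to every level below.

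All 10 markers had a higher fitted level in PP-MP than in control, as did 52.6% of all genes. None passed the edgeR quasi-likelihood test (adjusted p from 0.18 to 0.46), which 2 of 18284 genes or 0.0109% passed, 0.00547% higher and 0.00547% lower. The fitted log2 fold changes ran from 0.48 for Clec4f to 4.76 for Marco, with a median of 1.13 against 0.03 over all genes tested. At an unadjusted p under 0.05 the markers counted 5, all higher (Marco, Timd4, Adgre1, Vsig4 and Cd5l), where 8.05% of all genes were higher and 5.81% lower at that p (13.9% in all). DESeq2 called 3 markers, Marco, Timd4 and Adgre1, among 777 genes or 4.25% of those tested, 2.38% being higher (DESeq2 adjusted p = 3.0e-12, 0.0041 and 0.019). The groups did not overlap for 2 markers, Marco and Timd4, and 12.2% of all genes were likewise higher in every PP-MP library. Of all genes 9.79% were lower in every PP-MP library, and 0 of the markers were. Without PP-MP 1 the markers' median log2 fold change was 0.59, with 4 higher at an unadjusted p under 0.05 (Marco, Timd4, Vsig4 and Adgre1; 5.77% of all genes). With control 2 also left out it was 0.46, with 2 higher at that p (Marco and Timd4; 10.4% of all genes). No marker passed the edgeR threshold with other filters or scalings or with libraries left out, or that of limma-voom, where the share of all genes past it was 0.0158% (mean of at least 1 CPM), 0.00649% (no filter), 0.00547% (library totals, and likewise limma-voom), 0.0107% (without PP-MP 3) and 0.477% (without control 2).

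**Figure D1:**
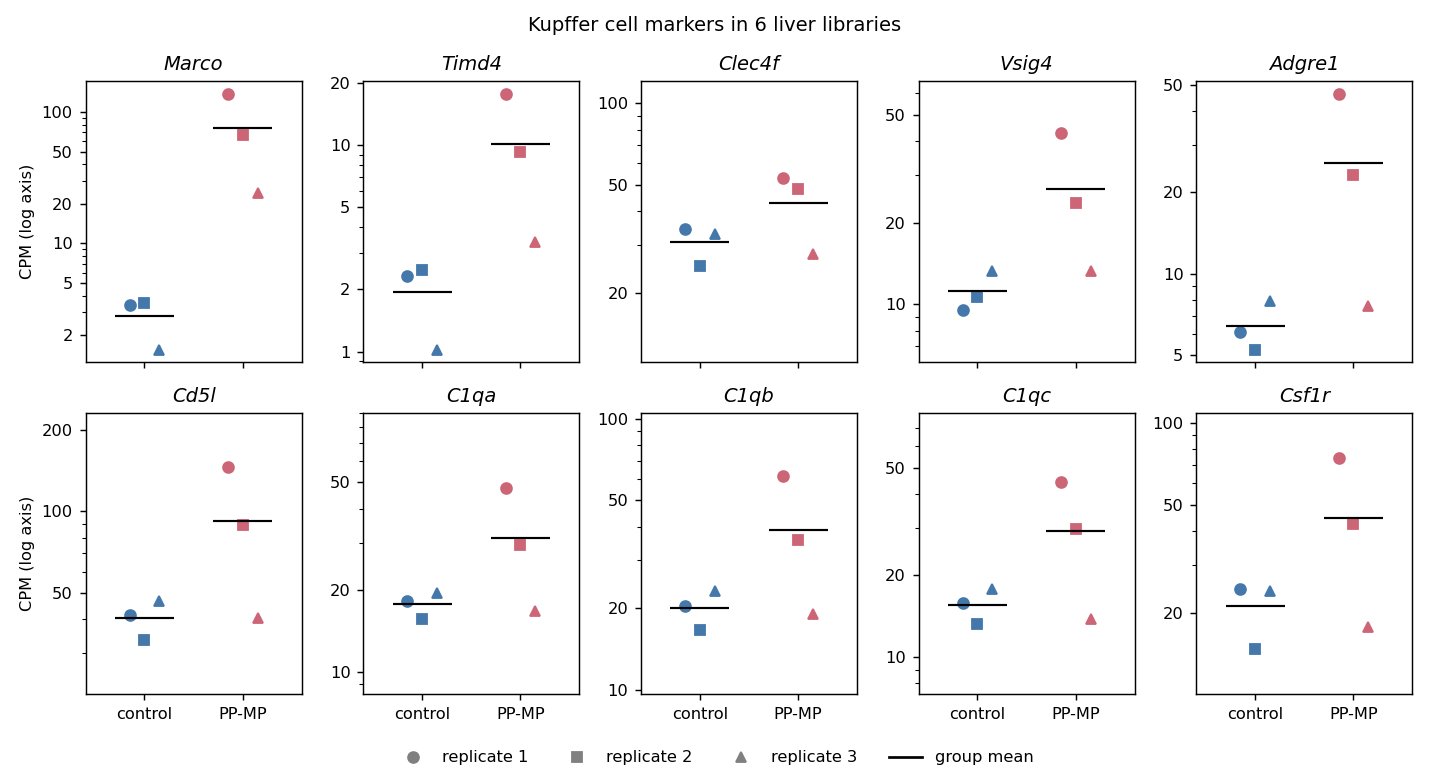
CPM of each marker in the 6 libraries on log axes, with controls in blue, PP-MP in red, symbols for replicate numbers and a line at the group mean. PP-MP 1 is highest for all 10 genes, and PP-MP 3 lies above every control for Marco and Timd4 alone.

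The PP-MP libraries differed widely from one another, and their order was PP-MP 1, PP-MP 2, PP-MP 3 from high to low for 10 of 10 markers and for 19.8% of all genes. PP-MP 1 and PP-MP 2 were above the highest control for all 10 markers, against 32.9% and 27.8% of all genes. PP-MP 3 was above the highest control for 2 of 10, against 27.5% of all genes, and below the control mean for 6. The summed level of the 10 markers was 176, 141 and 188 CPM in control 1, 2 and 3 and 672, 397 and 184 CPM in PP-MP 1, 2 and 3. The summed level of PP-MP 3 lay inside the control range. Leaving out PP-MP 3 left all 10 markers without overlap between the groups (19.2% of all genes higher in the same way), and leaving out control 3 left 4, the added ones being Vsig4 and Adgre1 (15.9% of all genes). Control 2 had the lowest value of 7 markers and control 3 that of Marco and Timd4.

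**Figure D2:**
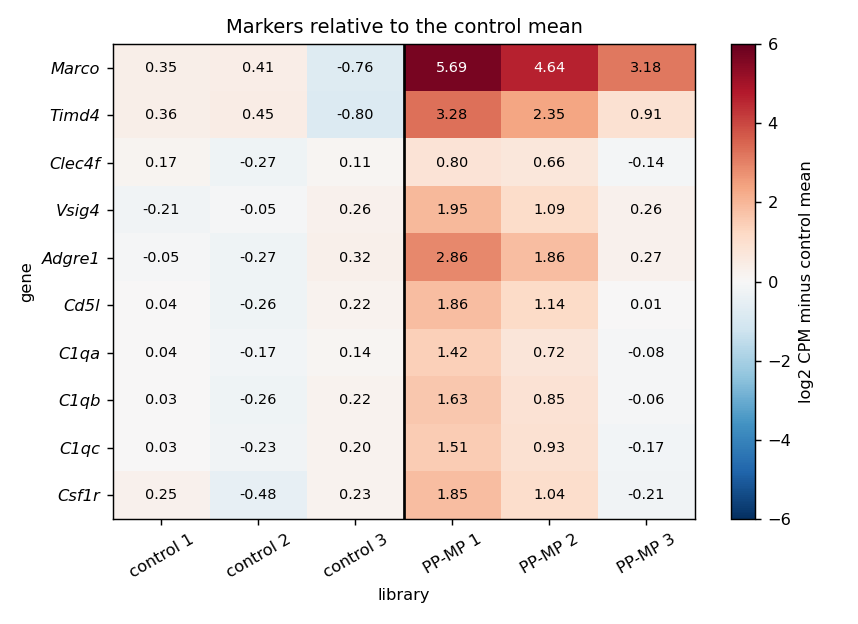
Log2 CPM of each marker (rows) in each library (columns) minus the control mean, with blue below and red above 0 and a line between the diets. In PP-MP 3 the values run from −0.21 to 0.27 for 8 markers, while Timd4 stands at 0.91 and Marco at 3.18.

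Among the receptors that bind particles and dying cells, Marco stood farthest apart. Marco encodes a class A scavenger receptor with a collagen-like stalk that binds bacteria and inhaled or ingested particles. Control 1, 2 and 3 held 246, 213 and 163 Marco counts, and PP-MP 1, 2 and 3 held 13923, 6068 and 2502. As levels the controls stood at 3.39, 3.53 and 1.56 CPM, and the PP-MP libraries at 138, 66.6 and 24.2 CPM. Every PP-MP library was above every control, and the lowest PP-MP value was 6.84 times the highest control value. The group means were 2.83 ± 1.10 and 76.2 ± 57.5 CPM (SD, n = 3 per group), with a log2 fold change of 4.76 (SE 0.72, 95% interval 3.03 to 6.48, edgeR adjusted p = 0.18). Of the genes tested, 27 had a larger log2 fold change. When the gap between the lowest PP-MP and the highest control log2 CPM was ranked over the 12660 tested genes with a mean of at least 1 CPM, 4 genes had a larger gap than Marco (Arhgap23, Smg1, Trip11 and the gene model Gm45774, named after their values were seen). Leaving out single libraries gave log2 fold changes of Marco from 4.01 to 5.18.

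Timd4 encodes TIM-4, a receptor for phosphatidylserine on dying cells. It was at 2.31, 2.47 and 1.02 CPM in control and at 17.8, 9.31 and 3.41 CPM in PP-MP. No PP-MP library overlapped the controls, although PP-MP 3 was only 1.38 times the highest control. The log2 fold change was 2.40 (SE 0.64, 95% interval 0.86 to 3.93, edgeR adjusted p = 0.24), and 199 genes had a larger one. Without PP-MP 1 it was 1.72.

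Marco and Timd4 kept a nearly constant ratio to each other within a diet and a different one between diets. For each Timd4 count, control 1, 2 and 3 held 1.46, 1.43 and 1.52 Marco counts, and PP-MP 1, 2 and 3 held 7.77, 7.16 and 7.09. Exact binomial 95% intervals, which cover counting error only, lay between 1.15 and 1.96 for the controls and between 6.34 and 8.16 for PP-MP, and within each diet the intervals overlapped. The mean ratio was 1.47 ± 0.0471 in control and 7.34 ± 0.373 in PP-MP (SD, n = 3 per group). Library size and scaling cancel in this ratio. When the 45 pairs of markers were ranked by the larger of their ranges within the diets, this pair had the smallest, 0.13 on the log2 scale, beside a shift of 2.32 between diets. Within control alone Cd5l/C1qb, C1qb/C1qc and Cd5l/C1qc had narrower ranges, and within PP-MP alone Vsig4/C1qb did. For 29 of the 45 pairs the ratios did not overlap between the diets, among them all 9 pairs with Marco. Those 9 share Marco's own difference, and the share over pairs of all genes was not computed. The pattern was noticed after the values were seen and was not tested.

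**Figure D3:**
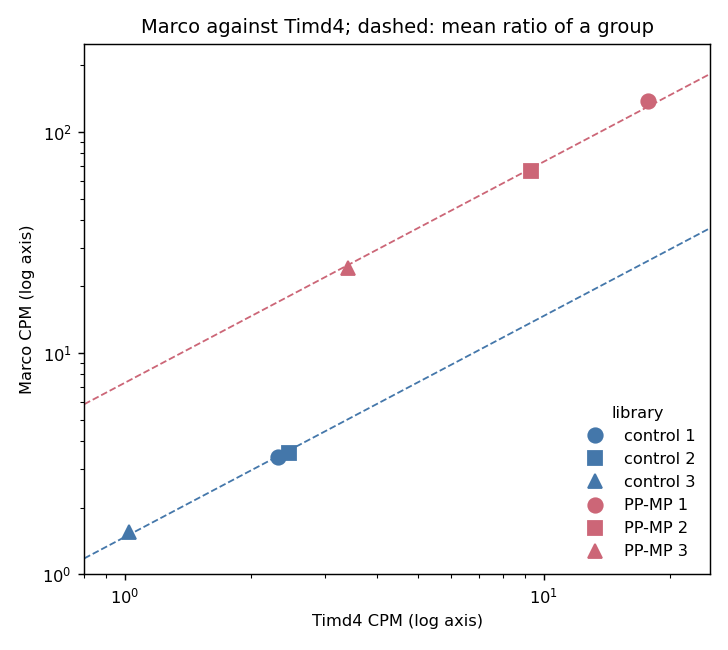
Marco CPM against Timd4 CPM in the 6 libraries, both on log axes, with controls in blue and PP-MP in red. Dashed lines are the mean ratio of each diet, 1.47 and 7.34, and the libraries of a diet lie along its line.

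The adhesion receptor Adgre1 encodes the F4/80 antigen, the classic surface marker of mouse macrophages. Its level was 6.10, 5.26 and 7.94 CPM in control and 46.3, 23.1 and 7.63 CPM in PP-MP. PP-MP 3 fell within the control range, and the log2 fold change was 1.996 (SE 0.60, 95% interval 0.56 to 3.44, edgeR adjusted p = 0.27). Without PP-MP 1 that log2 fold change was 1.26. Relative to the mean log2 CPM of 7 other markers (all but Marco and Timd4), Adgre1 stood at −1.79, −1.71 and −1.57 in control and at −0.40, −0.75 and −1.37 in PP-MP. All PP-MP values were above the controls on this relative scale, PP-MP 3 by the least, and the share of all genes for which this holds was not computed.

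Vsig4 encodes CRIg, the complement receptor with which Kupffer cells catch C3-coated bacteria. It was measured at 9.53, 10.7 and 13.3 CPM in control and at 42.7, 23.6 and 13.3 CPM in PP-MP. PP-MP 3 and control 3 were level (ratio 0.997), and when libraries were scaled by their totals alone the groups of Vsig4 and of Adgre1 no longer overlapped, while the share of all genes without overlap and higher was 24.5%. The log2 fold change of Vsig4 was 1.25 (SE 0.41, 95% interval 0.26 to 2.23, edgeR adjusted p = 0.30).

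Clec4f, a C-type lectin that binds galactose-bearing sugars, had the smallest fold change of the 10. Control libraries held 34.3, 25.2 and 32.9 CPM and PP-MP libraries 53.1, 48.4 and 27.7 CPM. PP-MP 3 was below 2 of the 3 controls, and the log2 fold change of 0.48 had a 95% interval from −0.15 to 1.12 (edgeR adjusted p = 0.46). Per Clec4f count there were 0.0474 to 0.140 Marco counts in control and 0.872 to 2.60 in PP-MP. For Timd4 these values were 0.0311 to 0.0980 in control and 0.123 to 0.334 in PP-MP. Neither range overlapped between the diets, PP-MP 3 included, and the share of all genes without overlap in such a ratio was not computed.

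Csf1r encodes the receptor for CSF1 and IL-34, on which macrophages depend for survival. Its level was 24.4, 14.7 and 24.1 CPM in control and 74.4, 42.3 and 17.7 CPM in PP-MP. PP-MP 3 was below 2 controls, and the log2 fold change was 1.09 (SE 0.50, 95% interval −0.11 to 2.28, edgeR adjusted p = 0.40). Exons of Csf1r overlap the gene Hmgxb3 on the opposite strand in the annotation used for lengths, and since the sources used here give no strand setting for the counting, its counts are uncertain.

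**Figure D4:**
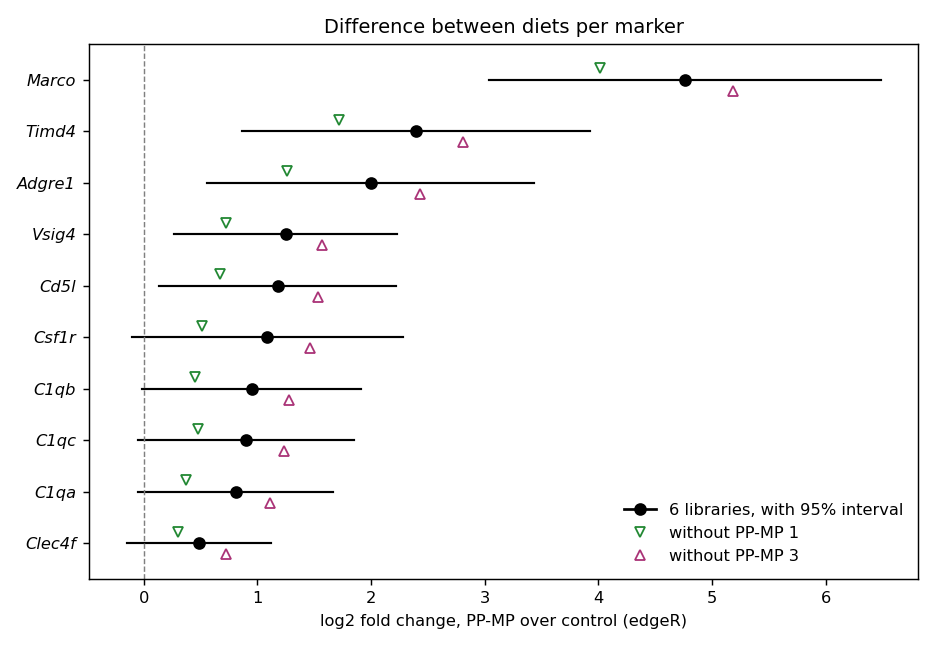
Log2 fold change of PP-MP over control for each marker, with 95% intervals derived from the edgeR test as bars and the values without PP-MP 1 or without PP-MP 3 as open triangles. All points lie above 0, and the intervals of Marco, Timd4, Adgre1, Vsig4 and Cd5l do not reach 0.

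Of the secreted products, Cd5l (also called AIM, a circulating protein of tissue macrophages that binds IgM) was at 41.4, 33.6 and 46.9 CPM in control and at 146, 89.0 and 40.4 CPM in PP-MP. PP-MP 3 again lay within the control range. The log2 fold change was 1.18 (SE 0.44, 95% interval 0.13 to 2.22, edgeR adjusted p = 0.33).

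C1qa, C1qb and C1qc encode the A, B and C chains of C1q, the recognition unit that starts the classical complement pathway, and all lie on chromosome 4. C1qb, the chain with the highest fold change, was at 20.3, 16.6 and 23.2 CPM in control and at 61.3, 35.7 and 19.1 CPM in PP-MP. Summed over the chains, C1q was at 54.4, 45.5 and 60.5 CPM in control and at 153, 94.6 and 49.7 CPM in PP-MP. PP-MP 3 lay within the control range for the sum. Log2 fold changes were 0.81 (SE 0.36) for C1qa, 0.95 (SE 0.40) for C1qb and 0.90 (SE 0.40) for C1qc, with edgeR adjusted p of 0.38, 0.36 and 0.38. Scaled per kb of exon, the chains kept their proportions, with C1qa at 38.1% to 40.7% of the C1q sum in control and 36.6% to 39.5% in PP-MP. C1qb took 41.0% to 43.2% in control and 42.9% to 45.1% in PP-MP, and C1qc the rest. The share of C1qc depends on the annotation, since its exons cover 1931 bases in all transcripts and 1203 in the basic set.

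Per kb of exon, the control order of levels was Cd5l at 19.9 ± 3.29 CPM per kb, C1qb at 18.4 ± 3.02, C1qa at 17.2 ± 1.85 and Clec4f at 12.5 ± 1.97 (SD, n = 3). C1qc at 8.09 ± 1.21, Vsig4 at 7.53 ± 1.30 and Csf1r at 3.65 ± 0.955 CPM per kb followed. Adgre1 at 1.99 ± 0.423, Marco at 1.47 ± 0.572 and Timd4 at 0.891 ± 0.366 CPM per kb closed the order. Cd5l and C1qb, C1qb and C1qa, C1qc and Vsig4, and Adgre1 and Marco were neighbours in this order that differed by less than the larger of their SDs. Marco and Timd4 differed by more than either SD, and Marco was above Timd4 in each control. By group mean in PP-MP Marco ranked second, at 39.6 ± 29.9 CPM per kb, next to Cd5l at 45.1 ± 26.0, and Timd4 stayed last at 4.68 ± 3.32. Marco, Cd5l and C1qb, at 35.6 ± 19.5, differed from one another by less than any of their SDs. Within PP-MP 1 the level was 71.7 CPM per kb for Marco and 71.8 for Cd5l, and within PP-MP 3 it was 12.6 and 19.9. In PP-MP 3 C1qb at 17.55 and C1qa at 16.2 CPM per kb were also above Marco. With the exon lengths of the basic set C1qc came above Clec4f in both diets.

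Other genes of Kupffer cells were taken from a list with no marker in common. Of 25 on a list of further Kupffer cell genes, 0 passed the edgeR threshold, and 4 were higher and 1 lower at an unadjusted p under 0.05. Over all genes 8.05% were higher and 5.81% lower at that p. DESeq2 called 1 of the 25 (Spic, DESeq2 adjusted p = 0.021), where it called 2.38% of all genes higher. The median log2 fold change of the list was 0.39. Fitted levels were higher in PP-MP for 19 of the 25 and lower for 6, and 52.6% of all genes were fitted higher. The 1 lower at that p was Id3, with a log2 fold change of −0.61. Id3 was at 41.9, 69.25 and 78.0 CPM in control and at 39.0, 42.5 and 42.5 CPM in PP-MP, and its groups overlapped. Spic, a transcription factor of iron-recycling macrophages, was at 0.248, 0.431 and 0.564 CPM in control and at 3.35, 1.49 and 0.783 CPM in PP-MP. The groups of Spic did not overlap, and its log2 fold change was 2.17 (edgeR adjusted p = 0.25). Hmox1, haem oxygenase, was at 12.1, 10.9 and 12.4 CPM in control and at 48.8, 23.4 and 14.0 CPM in PP-MP, also without overlap. Of the 25 genes 4 were higher in every PP-MP library, as were 12.2% of all genes, a similar share. Dmpk, a protein kinase, and Il18bp, which binds the cytokine IL-18, stood at 0.86 and 1.47 on the scale of log2 fold change, and the groups of Il18bp overlapped. The haemoglobin scavenger receptor Cd163 was at 1.23 to 4.15 CPM in control and at 14.9, 7.95 and 2.67 CPM in PP-MP, with PP-MP 3 inside the control range.

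A list of partners of the CSF1 receptor held its ligands, signalling proteins, macrophage transcription factors and receptor chains for the related factor GM-CSF. On that list of 16 genes 0 passed the edgeR threshold, 0 did so by DESeq2 and 0 at an unadjusted p under 0.05, with a median log2 fold change of 0.42. Of all genes 13.9% reached that p, and DESeq2 called 4.25%. Csf2ra, the GM-CSF receptor alpha chain, was at 0.951 to 1.36 CPM in control and at 3.49, 2.39 and 1.18 CPM in PP-MP. Its log2 fold change was 0.95 (SE 0.42), and those of the transcription factors Zeb2, Tfec and Mitf were 0.77, 0.75 and 0.74. Csf1 was at 8.01 ± 0.388 CPM in control and 10.6 ± 4.52 in PP-MP (SD, n = 3 per group), and Il34, the other ligand, at 2.66 ± 0.769 and 2.95 ± 1.44. Spi1, which encodes PU.1, was at 3.72 to 4.799 CPM in control and at 10.4, 6.27 and 3.05 CPM in PP-MP.

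The scavenger receptors other than Marco numbered 18 tested, with 0 past the threshold, 0 at an unadjusted p under 0.05, 0 by DESeq2 and a median log2 fold change of 0.36. Of all genes 13.9% reached that p, and DESeq2 called 4.25%. Msr1, the class A receptor SR-A, was at 1.35 to 4.44 CPM in control and at 12.7, 6.03 and 2.996 CPM in PP-MP. Its log2 fold change was 1.41 (SE 0.63) beside 4.76 for Marco, and its groups overlapped. Mrc1, the mannose receptor, had a log2 fold change of 0.78 (SE 0.37), also with overlap. Partners of C1q and other complement genes numbered 20, with 0 past the threshold, 3 higher at an unadjusted p under 0.05 and a median of 0.10. At that p 8.05% of all genes were higher, and DESeq2 called 2.38% higher. C3ar1, the receptor for C3a, was at 1.08 to 1.26 CPM in control and at 5.11, 3.12 and 1.61 CPM in PP-MP, and DESeq2 called it (adjusted p = 0.040). C1ra and C1s1, the proteases that join C1q and are made by hepatocytes, had log2 fold changes of 0.07 and 0.16. Receptors and bridging molecules for dying cells numbered 16 tested, with 0 past the threshold and 0 called by DESeq2. At an unadjusted p under 0.05, 1 was higher (Mertk, log2 fold change 0.54), against 8.05% of all genes. Havcr1 on that list, a relative of Timd4, had 0 counts in all 6 libraries, which allows a level of up to 0.0287 to 0.0498 CPM (3 counts, counting error only).

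Markers of other cells were measured in the same libraries, and on these lists 0 genes passed the edgeR threshold. Over all genes tested 0.0109% passed it, and 52.6% had a higher fitted level in PP-MP. At an unadjusted p under 0.05, 8.05% of all genes were higher, and DESeq2 called 2.38% higher. Of 18 genes shared by myeloid cells, 16 had a higher fitted level in PP-MP, 4 at an unadjusted p under 0.05 (Aif1, Lyz2, Cd14 and Cybb), and DESeq2 called 1 (Aif1). The summed level of that list was 117 to 174 CPM in control and 122 to 458 CPM in PP-MP, with 458 in PP-MP 1, and 0 of its genes were without counts. Genes of recruited monocytes and lipid-associated macrophages summed to 35.2 to 54.6 CPM in control and 32.4 to 71.7 CPM in PP-MP, with 14 of 19 higher, 2 at an unadjusted p under 0.05, a median of 0.77 and 2 called by DESeq2 (Ms4a7 and Chil3, adjusted p = 0.0027 and 0.017). Ms4a7 on that list was at 0.373 to 0.413 CPM in control and at 2.79, 1.70 and 0.812 CPM in PP-MP, and it was among the 3 genes most like Timd4 in profile. Ccr2 and Ly6c2, which define monocytes, were at 0.468 to 1.38 and 1.14 to 1.63 CPM in control and at 0.735 to 2.33 and 0.779 to 1.51 CPM in PP-MP. Neutrophil genes summed to 1.34 to 1.86 CPM in control and to 28.7, 5.51 and 3.23 CPM in PP-MP 1, 2 and 3. Of 12 on that list 5 were tested, with 4 higher at an unadjusted p under 0.05 and 1 called by DESeq2. DESeq2 gave no adjusted p for S100a9, another of the 5. Ly6g had 0 counts in every control. The part of the genes of these other cells in the marker differences was not tested.

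The 14 sinusoidal endothelial genes had a median of 0.15 on the log2 scale. Of these 0 reached an unadjusted p under 0.05, where 13.9% of all genes did. They summed to 171 to 207 CPM in control and 165 to 248 CPM in PP-MP. Dendritic cell genes (8 tested) and lymphocyte genes (12 tested) had medians of −0.17 and −0.58, against 1.13 for the Kupffer cell markers. The medians of the neutrophil genes (5 tested) and of the genes shared by myeloid cells (18 tested) were 2.58 and 0.77. Bst2, a tetherin also made by other cells, was lower in every PP-MP library, as were 9.79% of all genes. DESeq2 called Bst2 (log2 fold change −0.78, DESeq2 adjusted p = 4.6e-06). Stellate cell and cholangiocyte lists had medians of −0.05 and −0.05. Hepatocyte genes had a median of 0.23 over 14 genes, with 2 higher at an unadjusted p under 0.05 (Apoa1 and Serpinc1), against 8.05% of all genes. Of all genes DESeq2 called 2.38% higher, and of the hepatocyte genes 1. That gene was Apoa1, the main protein of HDL, at 1165, 1191 and 3693 CPM in control and at 9670, 3559 and 7457 CPM in PP-MP. Its groups overlapped, with an edgeR log2 fold change of 1.77 and a DESeq2 adjusted p of 0.039. Alb, which defines these cells, was at 51850 ± 4534 CPM in control and 52700 ± 5504 in PP-MP (SD, n = 3 per group). Acute phase genes had a median of 1.28 over 14 genes, with 8 higher at an unadjusted p under 0.05, against 8.05% of all genes. Saa1 was at 6.29 to 8.51 CPM in control and at 1700, 20.6 and 5.25 CPM in PP-MP 1, 2 and 3.

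**Figure D5:**
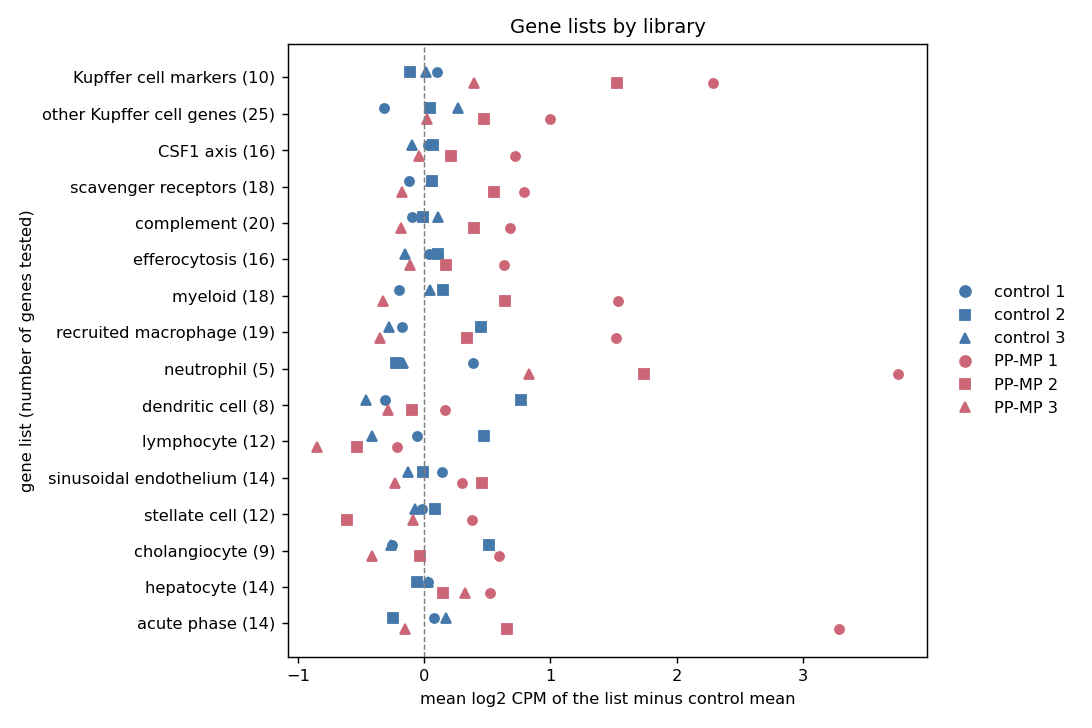
Mean log2 CPM of each gene list minus its control mean, per library, with the number of genes tested in brackets, controls in blue and PP-MP in red. PP-MP 1 stands highest of all libraries for 13 of 16 lists, all but the dendritic cell, lymphocyte and sinusoidal endothelium lists, with 2.29 for the Kupffer cell markers, 3.75 for neutrophil and 3.28 for acute phase genes.

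Genes with the most similar profile over the 6 libraries were sought by the root mean square difference of centred log2 CPM, over 11380 other named genes with a mean of at least 1 CPM. For Cd5l the closest was Treml4, a receptor of the TREM family, with a difference of 0.05. Treml4 was at 1.77 to 2.31 CPM in control and at 7.58, 4.39 and 2.11 CPM in PP-MP. C1qb was closest to C1qc (0.07) and then C1qa (0.09), and C1qc and C1qa were each closest to Ptgs1, the cyclooxygenase COX-1 (0.05 and 0.08). Closest to Vsig4 was Hacd4 (0.10), followed by the immune receptors Cd300a and Cd300ld (both 0.13). Adgre1 had Ctla2b (0.15) and Cd14, a co-receptor for bacterial lipopolysaccharide (0.19). Csf1r had Cd5l (0.15) and Fcgr1, the high-affinity IgG receptor (0.17). Clec4f, with the narrowest range, had Trpm4 (0.07). The nearest genes to Timd4 were Emilin2, Lilrb4a and Ms4a7 (0.37 to 0.43), and those to Marco were Smg1, Arhgap23 and Dennd5b (0.64 to 0.97), so these 2 markers had no neighbour as close as the other 8 had. The difference was not scaled by a gene's range over the libraries. On the log2 scale that range was 6.45 for Marco and 4.09 for Timd4, against 1.07 (Clec4f) to 3.13 (Adgre1) for the other 8.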

How the data were processed

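Raw read counts per gene were deposited by the authors as 1 table of 6 libraries, and the 6 per-sample files equal its columns. Per the labels, libraries were directional and made from poly(A) RNA. Per the submitters' processing notes, bcl2fastq was used and the build was GRCm39. The aligner, the counter, its strand setting and the annotation were not given in the sources used here. Total counts were 68357478 to 112566641 per library, and no 2 libraries of a group were duplicates (chi-square divided by its degrees of freedom was 154 to 928, at a minimum of 20 counts per gene).

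Counts were filtered with filterByExpr, scaled by TMM and compared in edgeR 4.0.16 (R 4.3.3) by its robust quasi-likelihood test, which is two-sided. P-values were adjusted by Benjamini and Hochberg over all 18284 genes, with 0.05 as the threshold. Standard errors were derived from that test, as the absolute log2 fold change divided by the square root of its F statistic. The 95% intervals were built from these standard errors with the t distribution, and both are approximate. Log2 CPM used a prior count of 2. Alternatives used DESeq2 1.42.0, limma-voom 3.58.1, other scalings and filters, a replicate block, a threshold of 0.1 and left-out libraries. DESeq2 gave no adjusted p for some tested genes, among them S100a9, Saa1 and Saa2, and these count as not called. The edgeR procedure was also run on simulated counts, drawn gene by gene without shifts shared by many genes of 1 library. Its outcome is not reported, and no result here rests on it. Same-numbered libraries are not said to be paired, and the comparison is unpaired.

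The members and the 16 gene lists were chosen with earlier results of these data known. Members are named in full, other lists by at most 4 genes of smallest p, not all of which are printed, plus defining markers as levels. Csf1, Il34, Spi1, C1ra, C1s1, Havcr1, Id3, Trip11 and Gm45774 fall outside that rule and were added after their values were seen. For each member the 3 genes of most similar profile were sought. Of 244 list entries 243 matched by symbol and 1 by a RefSeq synonym. Exon lengths come from GENCODE M21 (GRCm38). As that build differs from that of the counts, no gene coordinates are given beyond those of the promoter windows, which are on GRCm38.p6. Promoter sequences are RefSeq's. Figures used Python 3.11.15 with matplotlib 3.10.9.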

Additional observations from a re-analysis of the deposited data

How the results depend on the processing

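No marker passed the edgeR or limma-voom threshold under any alternative run, or at an adjusted p of 0.1, and DESeq2 called 3. The count over all genes was 2 and became 777 with DESeq2, 1 with limma-voom, 1 with library totals, 0 with a replicate block and 0 to 92 with a library left out (92 without control 2). With the replicate block Marco had a log2 fold change of 4.51 (edgeR adjusted p = 0.40), and the block changed no call of a marker. Deviations of same-numbered libraries correlated at −0.0662, −0.0872 and 0.0470, which gives no sign of pairing. Markers without overlap between the diets were 2, 4 with library totals (24.5% of all genes higher in that way, against 12.2%) and 2 to 10 with a library left out (4 without control 3, 10 without PP-MP 3). Library totals moved the median log2 fold change of all genes from 0.03 to 0.26 and that of the markers to 1.38. Over the 15 alternatives every marker kept a positive log2 fold change, from 0.18 for Clec4f without control 2 and PP-MP 1 to 5.18 for Marco without PP-MP 3. Without control 2 and PP-MP 1 together the markers' median was 0.46. The log2 fold change of Scara5, a scavenger receptor chosen for naming, was 2.46. With a library left out it ranged from −0.19 (without PP-MP 1) to 3.001 (without PP-MP 3), and without control 2 and PP-MP 1 it was −0.51. Scara5 was at 16.0 CPM in PP-MP 1, while PP-MP 2 and PP-MP 3, at 1.31 and 0.590 CPM, lay inside the control range of 0.514 to 1.695 CPM. The cause of the high level in PP-MP 1 was not tested. Precision is limited by the spread between 3 libraries per diet, and each marker had at least 107 counts per library.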
